A study of Rattus norvegicus with 4 samples.

Results

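Desmosomes are the spot-like junctions that join neighbouring epithelial cells and anchor their keratin filaments. The genes described here are 8 desmosome genes, namely the cadherins Dsg1, Dsg2 and Dsc2, the armadillo proteins Jup, Pkp1, Pkp2 and Pkp3, and the plakin Dsp. They were taken by gene name from the platform annotation, which pairs 11 probe sets with them, of 14217 genes with a probe set of their own on the array. All 8 reached a log2 value of 6, the floor used here, on at least 1 array, as did 8801 genes in all.

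The values come from ROE2, an epithelial line with an infinite life span, made from fetal tongue (18 days) of a transgenic Wistar rat. The line carries the tsSV40 large T-antigen gene [pSVtsA58ori(-)-2], whose product drives division in the cold and is inactivated by warming. All 4 groups share this transgene, the medium (DMEM/F12 with 2% serum, 1% ITES and EGF at 10 ng/ml), a collagen type I coat and a first 24 h at 33 °C, and they differ in the time then spent at 37 °C, which was 0 (the control), 3, 6 or 9 days. RNA of each day was measured on 1 rat 3' expression array, so no difference below has a replicate check or a p-value, and day, temperature history and array cannot be told apart. All are times of 1 immortal line in culture, which limits them as a model of oral epithelium.

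In a desmosome the desmogleins and desmocollins of adjacent cells bind each other outside the membrane. Inside, plakoglobin (Jup) and the plakophilins bind the cadherin tails, and desmoplakin (Dsp) ties this plaque to keratin. The cadherin and plakophilin types are known to differ between tissues and layers. Dsg2 and Pkp2 are the types of simple epithelia, the heart and the lower layers, while Dsg1 and Pkp1 are most abundant in the upper layers of stratified epithelia.

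Among the 8 genes the cadherins Dsg1 and Dsc2 and the plaque gene Jup were more than 2-fold higher on day 9 than on day 0, by 1.39, 1.36 and 1.13 on the log2 scale. Pkp2 was lower by -1.86, and Dsg2 was at -0.71. Pkp1 was at 0.66, and the values of Dsp and Pkp3 were 0.35 and 0.17. Fewer cells of a type and less RNA per cell cannot be told apart in these bulk samples. A gene is counted as higher or lower here when 2 arrays are 2-fold or more apart, that is 1 on the log2 scale. By that rule 3 of 8 were higher and 1 was lower on day 9, against 5.57% and 6.25% of the 8801 genes above the floor. The median of the 8 genes was 0.51 on day 9, against -0.14 for all genes above the floor. These counts and this median depend on the scale of the arrays. Centred on the hybridisation spike-in controls, 0 of 8 were higher and 2 were lower on day 9. On that scale 1.98% of all genes were higher and 33.1% lower, and the median of the 8 genes was -0.13.

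**Figure D1:**
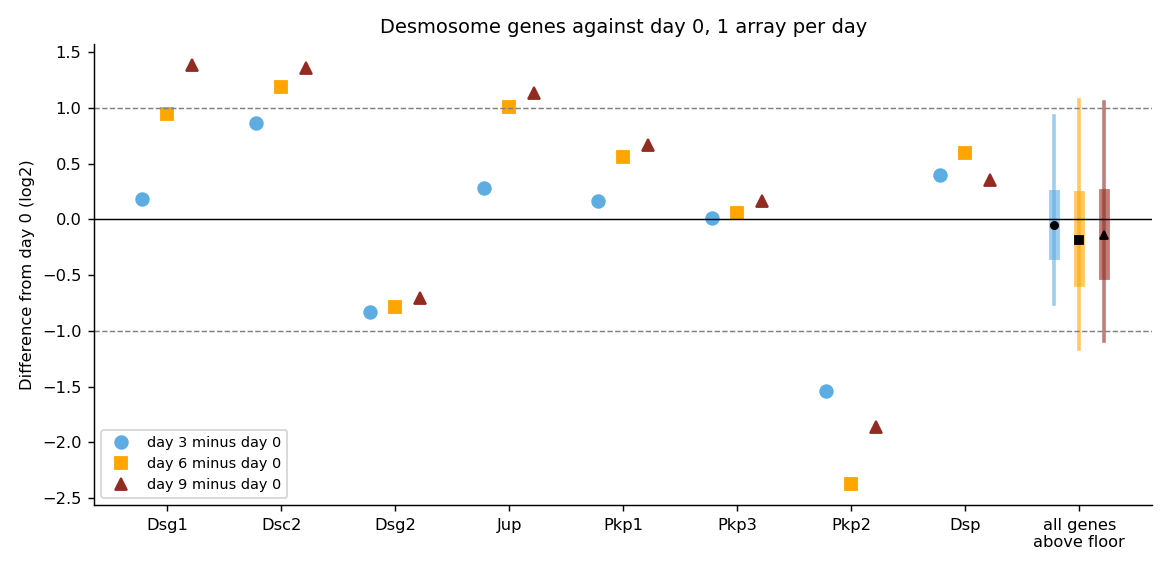
Difference from day 0 (log2) of each desmosome gene on days 3, 6 and 9, 1 array per day. For all 8801 genes above the floor the thin bars run from the 5th to the 95th percentile, the thick bars over the middle quartiles, and the black marks are medians; dashed lines mark 2-fold. Dsg1, Dsc2 and Jup lie above the upper dashed line on day 9 and Pkp2 lies below the lower one on all 3 days.

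The scale and the cell type of these arrays were also looked at. All 7 markers of stratified epithelium (Krt5, Krt14, Krt13, Tp63, Cdh1, Epcam and Sfn) were above the floor on every array, and their summed linear value was 40541 on day 0 and 55925 on day 9, or 39723 and 40507 without Krt13. Of the markers of other cells, 0 of 6 fibroblast, 0 of 6 muscle and 0 of 3 measured endothelial genes reached the floor, with summed linear values of 56.2 to 59.2, 99.2 to 120 and 32.6 to 42.4. Of 4 measured leukocyte genes 1 did, the lysosomal gene Cd68, at 5.32 on day 0 and 6.54 on day 3, with a summed value of 64.0 to 119, while the leukocyte genes Ptprc, Cd3e and Itgam stayed below the brightest bacterial control. The 18 hybridisation spike-in probe sets, whose targets go into each sample at the same concentration, had medians 0.14, 0.39 and 0.63 above day 0 on days 3, 6 and 9. The beta-actin control probe sets near the 3' and the 5' end were 2.25, 2.44, 1.22 and 2.35 apart on days 0, 3, 6 and 9, so the day 6 array stood apart in that control. It did not in GAPDH, with gaps of 0.10, 0.04, -0.02 and 0.18, or in hexokinase, with 1.41, 1.48, 1.45 and 1.75.

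The genes of the desmosomal cadherins are neighbours. In the GRCr8 assembly they lie on chromosome 18 in the order Dsc3, Dsc2, Dsc1, Dsg1, Dsg4, Dsg3 and Dsg2, and no other protein-coding gene of RefSeq's table starts between them. Promoter windows are shown for Dsg1, Dsc2, Dsg2 and Jup. They were picked because Dsg1, Dsc2 and Jup were furthest above day 0 among the 8 genes on day 9, while Dsg2 was below it. Each window holds the 250 bases before and the 50 bases after the gene's start, from RefSeq in build GRCr8, read on the gene's own strand. The capitals mark matches to CAGGTG, an E-box bound by Snail and Zeb repressors, and to GGGCGG, the GC box of Sp1, on either strand.
Dsg1, chr18:11947848-11948147, plus strand: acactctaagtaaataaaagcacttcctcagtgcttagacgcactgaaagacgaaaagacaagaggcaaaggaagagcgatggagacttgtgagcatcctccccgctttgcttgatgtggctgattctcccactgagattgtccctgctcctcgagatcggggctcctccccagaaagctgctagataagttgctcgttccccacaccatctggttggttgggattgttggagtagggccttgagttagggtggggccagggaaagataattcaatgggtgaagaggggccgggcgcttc
Dsc2, chr18:11757417-11757716, minus strand: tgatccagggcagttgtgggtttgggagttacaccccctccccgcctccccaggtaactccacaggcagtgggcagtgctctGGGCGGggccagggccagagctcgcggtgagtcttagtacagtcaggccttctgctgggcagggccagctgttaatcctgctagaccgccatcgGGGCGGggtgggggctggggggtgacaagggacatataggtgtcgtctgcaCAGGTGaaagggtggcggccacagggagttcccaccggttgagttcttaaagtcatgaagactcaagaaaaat
Dsg2, chr18:12121037-12121336, plus strand: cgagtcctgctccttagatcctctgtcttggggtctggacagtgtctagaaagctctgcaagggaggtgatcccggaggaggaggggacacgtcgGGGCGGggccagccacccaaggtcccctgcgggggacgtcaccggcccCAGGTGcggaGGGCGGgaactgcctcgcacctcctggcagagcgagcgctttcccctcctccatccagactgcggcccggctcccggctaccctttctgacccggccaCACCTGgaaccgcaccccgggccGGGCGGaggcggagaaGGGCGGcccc
Jup, chr10:85827380-85827679, minus strand: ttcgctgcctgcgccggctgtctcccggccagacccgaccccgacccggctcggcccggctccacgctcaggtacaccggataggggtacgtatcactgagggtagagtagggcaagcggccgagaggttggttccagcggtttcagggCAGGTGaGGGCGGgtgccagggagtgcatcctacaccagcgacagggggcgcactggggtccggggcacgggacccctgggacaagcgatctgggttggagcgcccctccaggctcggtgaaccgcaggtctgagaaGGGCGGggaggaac

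The Dsg1 window held none of the motifs searched, and the other windows held both marked ones. In Dsg2 CAGGTG or its reverse CACCTG began at -107 and 2 relative to the start, in Dsc2 at -23 and in Jup at -101. GGGCGG began at -155, -97, 25 and 41 in Dsg2, at -168 and -74 in Dsc2 and at -94 and 37 in Jup. Of the members, Dsp, Jup, Pkp1, Dsg1, Dsg2 and Dsc2 matched an entry of the promoter table by symbol, and Pkp2 and Pkp3 did not. CAGGTG stood in 4 of these 6 windows and in 18.7% of all 27457 windows of that length, and GGGCGG in 5 of 6 and in 34.7%. TATAAA (14.3% of all windows), the grainyhead motif AACCGGTT (0.171%) and its looser form AACCNGTT (2%), which includes it, stood in 0 of the 6. The windows differed in base content, with 52.3% G or C in Dsg1, 60.7% in Dsc2, 70.3% in Dsg2 and 69% in Jup, against a median of 52.3% over all windows. A match describes letters in a window and not a bound site.

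**Figure D2:**
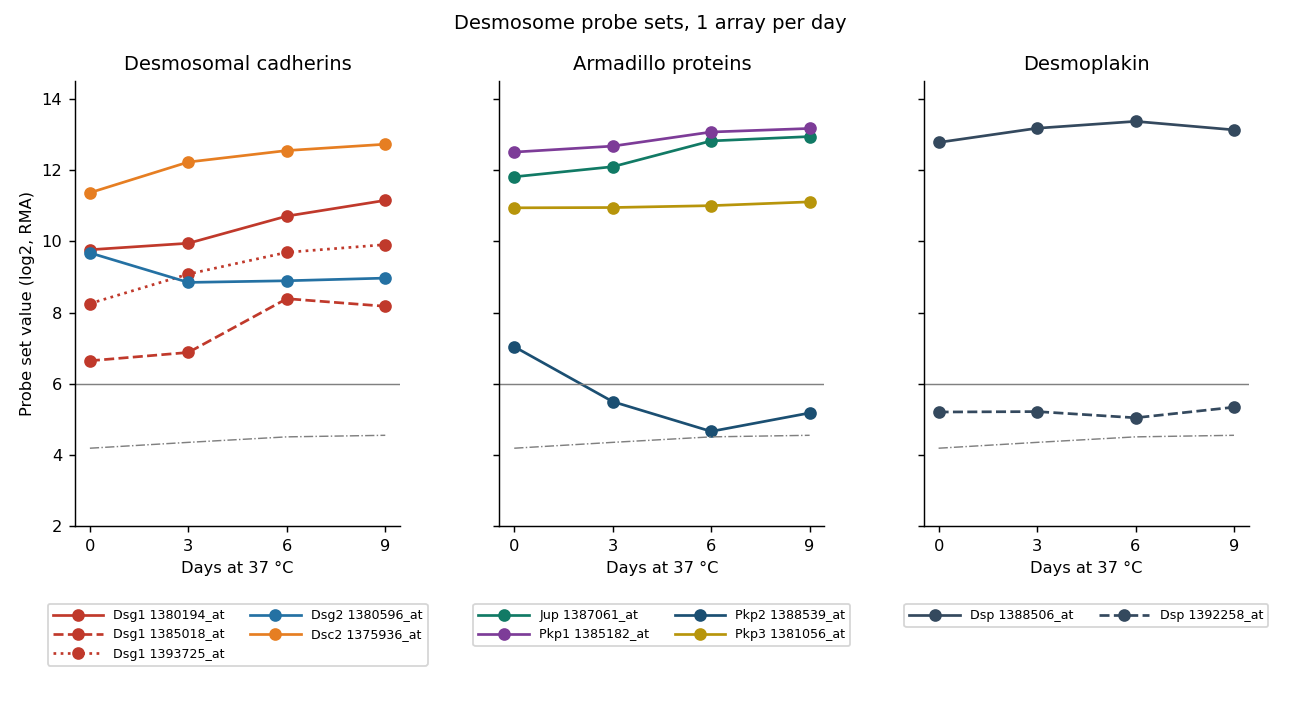
Deposited log2 values of all 11 desmosome probe sets by days at 37 °C, 1 array per day and 1 line per probe set. The solid grey line is the floor of 6 and the grey dash-dot line the brightest bacterial control probe set; Pkp2 passes below the floor after day 0, and the second Dsp probe set is below it on all 4 arrays.

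Dsg1 encodes desmoglein 1, the desmoglein of the upper layers and the target of autoantibodies in pemphigus foliaceus. Its brightest probe set (1380194_at) read 9.77, 9.95, 10.71 and 11.15 on days 0, 3, 6 and 9. Each array was thus above the one before, and the gap to day 0 grew from 0.18 to 0.94 and 1.39, a 2.61-fold difference on day 9. A second probe set of Dsg1 (1393725_at) read 8.25, 9.08, 9.69 and 9.91, and the third (1385018_at) read 6.65, 6.88, 8.39 and 8.18. All 3 were lowest on day 0 and at least 1.39 higher on day 9. They parted on the way there. On day 3 they were 0.18, 0.83 and 0.23 above day 0, and on day 6 they were 0.94, 1.44 and 1.74 above it, so Dsg1 missed the 2-fold rule on day 6 in its brightest probe set only. The largest of these day 6 values came with the smaller 3' to 5' gap of beta-actin on that array, whose part in it was not tested. On day 9 the Dsg1 difference was above that of 97.1% of genes.

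Dsc2 encodes desmocollin 2, the desmocollin found in most tissues that have desmosomes. It read 11.36, 12.23, 12.55 and 12.73 on days 0, 3, 6 and 9 (1375936_at). Most of its difference was already there on day 3, when it was 0.86 higher than on day 0, followed by 1.18 on day 6 and 1.36 on day 9. The day 9 value is a 2.57-fold difference, above that of 96.9% of genes. In its brightest probe set Dsg1 thus ended 0.02 apart from Dsc2 in its change from day 0, after differing by -0.68 on day 3. The other Dsg1 probe sets did not share this course. Probe set 1393725_at was at 0.83 on day 3, close to Dsc2, and at 1.65 on day 9, above it. Probe set 1385018_at was at 0.23 and 1.53 on these days.

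Dsg2 encodes desmoglein 2, the desmoglein of simple epithelia and of the heart. It read 9.68, 8.85, 8.89 and 8.97 on days 0, 3, 6 and 9 (1380596_at). The 3 later arrays lay within 0.12 of each other and all below day 0, by -0.83, -0.78 and -0.71, which is 1.63-fold on day 9 and short of the 2-fold rule. On day 3 only 3.78% of genes lay lower than Dsg2 in their difference from day 0, and on day 9 13.8% did.

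The cadherins can also be set against each other as changes within an array, a quantity that a flat shift of the whole array leaves as it is. The change of Dsg1 from day 0 exceeded that of Dsg2 by 1.01, 1.73 and 2.09 on days 3, 6 and 9, the last a 4.27-fold shift in their ratio. The change of Dsc2 exceeded that of Dsg2 by 1.69, 1.97 and 2.07. In both pairs the gap was wider on each later array for the probe sets used. With the dimmest Dsg1 probe set (1385018_at) the gap to Dsg2 was 1.06, 2.53 and 2.24, and so widest on day 6. These values show unequal change and leave the change of any single gene unstated.

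**Figure D3:**
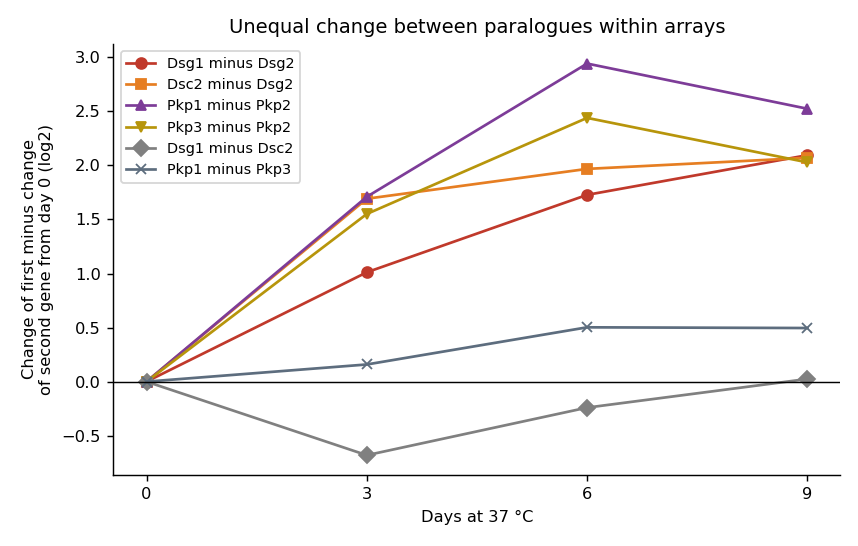
Change from day 0 of the first gene minus that of the second (log2) for 6 pairs of desmosome genes by days at 37 °C, 1 array per day. The 4 pairs that end in Dsg2 or Pkp2 reach 2.03 to 2.52 on day 9, and the pairs Dsg1 with Dsc2 and Pkp1 with Pkp3 end at 0.02 and 0.50. Dsg1 is drawn from its brightest probe set only.

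Jup encodes plakoglobin, which binds the tails of desmosomal cadherins and, like its relative beta-catenin, those of classical cadherins too. It read 11.81, 12.09, 12.82 and 12.94 on days 0, 3, 6 and 9 (1387061_at). It was higher on each later array, and the largest step was the 0.72 between days 3 and 6, which exceeded that of 98% of genes. Against day 0 it was 0.28, 1.01 and 1.13 higher, 2.19-fold on day 9. On day 6 it passed the 2-fold rule by under 0.01, and with a further quantile normalization it was at 0.98. The day 6 array had the smaller 3' to 5' gap of beta-actin. Its part in these Jup values and in the day 6 high of Dsp was not tested. The change of Jup exceeded that of the beta-catenin gene Ctnnb1 by 0.86 on day 9, with Ctnnb1 at 0.27 in its brightest probe set and at 0.19 and 0.73 in its other probe sets above the floor.

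The plakophilins bind cadherin tails and desmoplakin and gather them into the plaque. Pkp1, the plakophilin of stratified epithelia, read 12.51, 12.67, 13.07 and 13.17 on days 0, 3, 6 and 9 (1385182_at). Its difference from day 0 was 0.17, 0.56 and 0.66, or 1.58-fold on day 9, with the same order of arrays as Jup. Pkp3, found in nearly all epithelia, read 10.94, 10.95, 11.00 and 11.11 (1381056_at). Its 4 values spanned 0.17, less than the 0.44 by which probe sets of the same gene typically parted in that comparison, and its sign was negative on all 3 days when the spike-ins set the scale, and on day 3 after a further quantile normalization.

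Pkp2, the plakophilin of simple epithelia and of cardiac muscle, read 7.04, 5.50, 4.67 and 5.18 on days 0, 3, 6 and 9 (1388539_at). Day 0 was the only array on which it reached the floor. It was lower than on day 0 by -1.54, -2.38 and -1.86, or 2.91-fold, 5.20-fold and 3.63-fold, and on day 6 only 0.364% of genes had a lower difference. On that array it stood at 4.67 against 4.51 for the brightest of 27 bacterial control probe sets, so little signal was left above background. Raising every value under the floor to 6 left a difference of -1.04 on each later day. Markers of cardiac and skeletal muscle were below the floor on all 4 arrays. Of these only the desmin gene Des was above the bacterial controls, at 5.31 on day 0 and 5.74 on day 9.

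Within arrays, the change of Pkp1 exceeded that of Pkp2 by 1.71, 2.94 and 2.52 on days 3, 6 and 9, and that of Pkp3 exceeded it by 1.55, 2.44 and 2.03. The size and order of these gaps rest on Pkp2 values below the floor. With those raised to 6, the gaps were 1.21, 1.61 and 1.71 for Pkp1 and 1.05, 1.10 and 1.21 for Pkp3. Pkp1 and Pkp3 themselves parted by 0.16, 0.50 and 0.50.

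Dsp encodes desmoplakin, the obligate link from plaque to keratin filaments. It read 12.78, 13.18, 13.37 and 13.13 on days 0, 3, 6 and 9 (1388506_at). Day 6 was highest, and no array was 2-fold from day 0, with differences of 0.40, 0.59 and 0.35. When the spike-ins set the scale, the day 9 value was -0.28. Only 0.344% to 0.598% of all probe sets were brighter on the same array, a range in which an array can compress differences. Pkp1, with 0.428% to 0.791%, and on day 9 Jup, with 0.563%, and Dsc2, with 0.675%, were about as bright. Whether compression acted on any of them was not tested. A second probe set of Dsp (1392258_at) read 5.21, 5.22, 5.05 and 5.34, below the floor throughout, and gave 0.14 on day 9.

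The counts followed the same course by day. On day 3, 0 of 8 genes were higher and 1, Pkp2, was lower than on day 0, against 4.31% and 2.15% of all genes. On day 6, 2 were higher, Dsc2 and Jup, and 1 was lower, against 5.74% and 8.08%. The medians of the 8 genes on days 3 and 6 were 0.17 and 0.58, and those of all genes -0.05 and -0.18. Between neighbouring later days 0 of 8 genes passed the rule in either direction in their brightest probe sets. From day 3 to day 6, where 0.829% of all genes were higher and 1.60% lower, Dsg1 was at 0.76 and Jup at 0.72. From day 6 to day 9, where 0.250% were higher and 0.591% lower, Dsg1 was at 0.44 and Dsp at -0.24. The Dsg1 probe set 1393725_at was at 0.61 and 0.22 in these steps. The dimmest (1385018_at) was at 1.51, past the rule, and then at -0.21, so the Dsg1 probe sets disagreed in sign from day 6 to day 9. Pkp2, at -0.84 and 0.52 in these steps, was below the floor on all 3 arrays, so its steps have no order.

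A looser threshold of 1.5-fold took in more of the members and many more of all genes. On day 3 it counted 1 higher (Dsc2) and 2 lower (Dsg2 and Pkp2) of 8, against 10.2% and 10.0% of all genes. On days 6 and 9 it counted the same 4 higher (Dsg1, Dsc2, Jup and Pkp1) and the same 2 lower, against 12.1% and 22.9% on day 6 and 12.0% and 19.6% on day 9. Under it, the lower genes Dsg2 and Pkp2 made up a share near that of all genes on day 6.

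The scale of the arrays moved the 2-fold counts of days 6 and 9 and of the step between days 3 and 6, but not those of day 3 or of the step between days 6 and 9. The 1.5-fold counts were not run under another scale. With each array centred on the spike-ins, 0 of 8 genes were 2-fold higher and 2 were lower on day 9, when Dsg1 was at 0.75, Dsc2 at 0.73, Jup at 0.50, Pkp1 at 0.03, Pkp3 at -0.47, Dsg2 at -1.34 and Pkp2 at -2.49. On that scale 1.98% of all genes were higher and 33.1% lower, so the 2 lower genes of 8 were no larger a share than among all genes. The median of the 8 genes was then 0.03, 0.19 and -0.13 on days 3, 6 and 9. Centring on the median gene instead gave 1.49, 1.47 and 1.24 for Dsg1, Dsc2 and Jup on day 9. Pkp2 was 2-fold or more lower on all 3 days under each of these scalings.

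**Figure D4:**
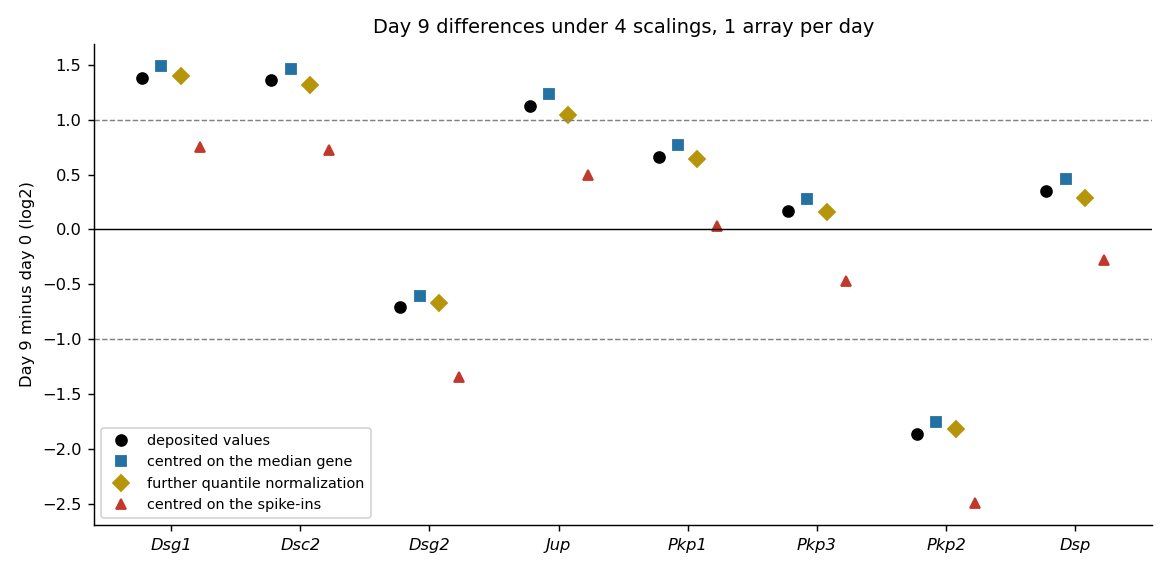
Day 9 minus day 0 (log2) of each desmosome gene under the deposited scale and 3 other scalings, 1 array per day; dashed lines mark 2-fold. Centring on the spike-ins moves every gene down by 0.63, which takes Dsg1, Dsc2 and Jup under the upper dashed line and Dsg2 under the lower one.

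The other desmosome genes on the list used here were measured in 7 of 10 cases, and Dsc3, Dsg3 and Dsg4 had no probe set with that name. On day 9, 2 of the 7 were 2-fold or more higher and 0 lower, against 5.57% and 6.25% of all genes, with a median of 0.84. On the spike-in scale 1 was higher and 2 were lower, against 1.98% and 33.1% of all genes, with Evpl at 0.55. Cdsn, which encodes corneodesmosin of the modified desmosomes of cornifying cells, read 10.22, 11.59, 12.15 and 12.36, which is 2.14 higher on day 9. The plakin gene Evpl (envoplakin) was 1.19 higher on day 9, and its partner Ppl (periplakin) was at 0.77. The tetraspan desmosome gene Perp was at 0.84, and at 0.995 in its second probe set, just short of the 2-fold rule. Dsc1, the desmocollin of the upper epidermis, read 4.85, 6.41, 5.92 and 5.74, so it reached the floor on day 3 only. Its differences of 1.56 on day 3 and 0.89 on day 9 rest on values below the floor, and the latter was 0 with such values raised to 6. The plakophilin relative Pkp4 was at -0.41 in 1 probe set and 0.63 in another, and Kazn, the gene of a periplakin-binding protein, was at -0.51 and 0.41, so their probe sets disagreed in sign.

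**Figure D5:**
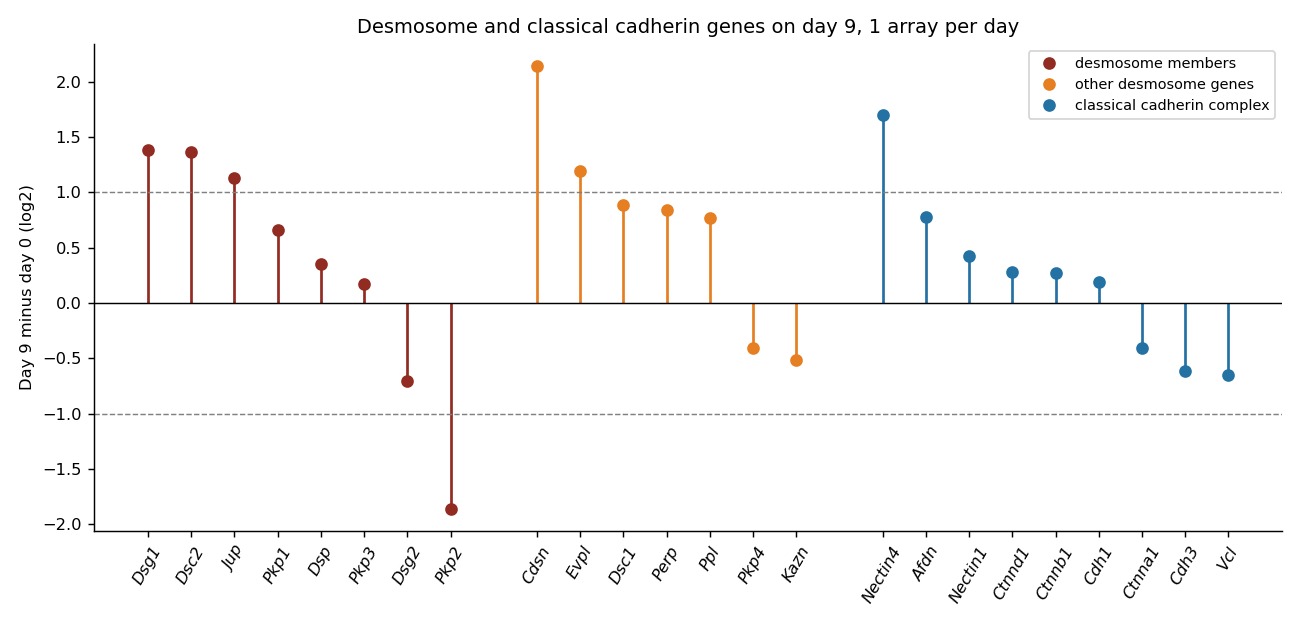
Day 9 minus day 0 (log2) for the 8 desmosome genes, 7 other desmosome genes and 9 genes of the classical cadherin complex above the floor, 1 array per day, in falling order within each list; dashed lines mark 2-fold. Cdsn and Nectin4 have the largest values of the other lists, at 2.14 and 1.70, and Cdh1 is at 0.19.

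The classical cadherin complex builds the adherens junction, which joins cells to actin and not to keratin. Of its 9 genes 1 was 2-fold or more higher on day 9 and 0 lower, against 5.57% and 6.25% of all genes, with a median of 0.27. The immunoglobulin-like adhesion gene Nectin4 was 1.70 higher, the nectin linker gene Afdn was at 0.78 and the actin linker gene Vcl (vinculin) at -0.65, though 1 of its other probe sets was at -1.27. Cdh1, the E-cadherin gene, read 11.54, 11.46, 11.69 and 11.73. Its 4 values spanned under 0.3, and the changes of Dsg1, Dsc2 and Jup on day 9 exceeded its change by 1.20, 1.17 and 0.94. No test of a difference between the lists was run. When the spike-ins set the scale, which lowers every day 9 value by 0.63, the median of the complex and the values of Cdh1 and Ctnnb1 turned negative. On that scale 1 gene of the 9 was higher and 3 were lower, against 1.98% and 33.1% of all genes.

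Of 16 listed regulators of desmosomes 13 were measured and 12 were above the floor. On day 9, 2 were 2-fold or more higher and 0 lower, against 5.57% and 6.25% of all genes, with a median of 0.45. Both were grainyhead factors, known activators of epithelial junction and barrier genes. Grhl1, for which Dsg1 is a known target, read 9.01, 10.60, 11.33 and 10.99 and was 1.99 higher on day 9, or 2.06 in its other probe set. Grhl3 read 9.02, 10.70, 11.05 and 11.20 and was 2.17 higher. The kinase gene Prkca was at 0.94, and Tp63, the master regulator of stratified epithelia, was at 0.41. The other Tp63 probe set was at 1.07, but it read 4.74 on day 0 and 5.81 on day 9, both below the floor. The listed genes Egfr and Spink5 passed the rule in a dimmer probe set each, at 1.29 and 1.09. In their brightest probe sets they were at 0.48 and 0.89, and a further Spink5 probe set was at 0.62. On the spike-in scale the median of the regulators and the brighter Tp63 probe set turned negative. The repressor gene Zeb1 was below the brightest bacterial control on all 4 arrays, and Snai2, Klk5 and Klk7 had no probe set.

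Keratins are the filaments that desmosomes hold. Of 9 listed keratin genes 8 were measured and 7 were above the floor, with 3 higher and 1 lower by 2-fold or more on day 9, against 5.57% and 6.25% of all genes. Krt13, the suprabasal keratin of oral lining, was 4.24 higher on day 9. Krt10, a keratin of upper layers, was 1.58 higher, or 0.94 on the spike-in scale, which ends its call. Its partner Krt1 read 4.32, 5.78, 6.50 and 6.80, below the floor on days 0 and 3, so its day 9 difference of 2.48 was 0.80 with values raised to the floor, which ends its call too. Krt8, the simple epithelial keratin, read 8.58, 7.70, 7.08 and 7.43, and so was lower by -0.89, -1.51 and -1.15.

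For the 4 members that were 2-fold or more apart on day 9, the genes with the most alike course were sought among all 8801 genes. The measure was the root mean square distance over the 3 differences from day 0, and 4 arrays leave many genes alike. Nearest to Dsg1 were Msl1, Osbpl1a and Nr1h2, at distances of 0.05, 0.09 and 0.10, and Jup was the 20th nearest at 0.16. Nearest to Dsc2 were Mfsd13a, Ambra1 and Tom1, each at 0.05, and the nearest member, Jup, came 291st at 0.37. Nearest to Jup were Ier5l, Foxn3 and Plxdc2, at 0.05, 0.06 and 0.06. Nearest to Pkp2 were Tmem14a, Apbb2 and Fam167a, at 0.09, 0.10 and 0.13, and the nearest member, Dsg2, came 809th at 1.21. As Pkp2 was below the floor on all later arrays, its neighbours rest on signal near background.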

How the data were processed

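RNA of ROE2 cells was measured on 4 Affymetrix rat arrays, 1 each for days 0, 3, 6 and 9, as the labels name them. Per the submitters' processing notes, the authors used RMA, and what they deposited reads as log2 from its range of 1.55 to 14.2. Software and version: not given in the sources used here. RMA gives all arrays nearly the same distribution, so a shift shared by most genes is largely removed. No scanner files were used here.

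Probe sets were named from the platform annotation. Of 31099, 20826 have 1 gene (20758 matched RefSeq's table by identifier, and 0 symbols changed) and 436 several, which were left out. For genes with several probe sets, that of the highest mean was used. Differences are between single arrays, whose number limits the precision. Code for the 2-fold rule was checked on simulated data.

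The 8 members, the lists, the floor, the rules and the alternatives were chosen with earlier results of these data known, so patterns shown then are not independent support. Named genes are the members with every probe set, the other desmosome genes above the floor, the 3 largest of each further list, Cdh1, Ctnnb1, Grhl1, Grhl3 and Tp63, and the 3 nearest genes of each member 2-fold apart on day 9. Krt8, Zeb1, Egfr, Spink5 and other markers were named after their values were seen. Alternatives were 3 other floors, 3 other choices of probe set, 3 other scalings, values raised to the floor, and thresholds of 1.5-fold and 3-fold. Protein sequences were not used here. Python 3.11.15, numpy 2.4.6, pandas 2.3.3 and matplotlib 3.10.9 were used.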

Additional observations from a re-analysis of the deposited data

How the results depend on the processing

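Settings tried on the other gene lists, the pairs of genes and the marker sum were chosen after seeing the data. With 1 array per day nothing below has a replicate error, no array could be left out, and signal over background limits Pkp2 alone of the 8 genes. No paired analysis was possible because each day has 1 array. Counts of 2-fold genes among the 8 moved as follows. Centred on the spike-ins, 0 were higher on days 6 and 9 and 2 lower on each, 1 was lower from day 3 to day 6, and the day 9 median was -0.13. With a floor of 8, which leaves Pkp2 out, 0 were lower on days 3, 6 and 9. A further quantile normalization left 1 higher on day 6. With the dimmest Dsg1 probe set above the floor, 1 was higher from day 3 to day 6. At 1.5-fold, 1 was higher and 2 lower on day 3, 4 and 2 on day 6, 2 lower on day 9, and 2 higher and 1 lower from day 3 to day 6. At 3-fold, 0 were higher on days 6 and 9 and 0 lower on day 3. With no floor, a floor of 5, the mean over probe sets or unmarked probe sets, the counts of the 8 genes stayed within 1.5 times of those reported. Of all genes above the floor, 379 were higher and 189 lower on day 3, against 284 and 302 centred on the spike-ins. On day 6 there were 505 and 711, against 688 and 447 centred on the median gene and 251 and 1897 on the spike-ins. On day 9 there were 490 and 550, against 582 and 411 centred on the median gene, 174 and 2911 centred on the spike-ins, 373 and 327 with a floor of 8, and 185 and 130 at 3-fold.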

Other observations

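Relatives of the desmosome genes were put into 2 lists after the values above were known. Plakins are large linkers between junctions and the cytoskeleton. Among 7 plakin genes the rule counted 1 as higher on day 9, Evpl, and 0 as lower, against 5.57% and 6.25% of all genes. On the spike-in scale it counted 0 and 3, against 1.98% and 33.1% of all genes. On the deposited scale the plakin genes other than Evpl, Ppl and Dsp were below 0 in their brightest probe sets. Plec, the hemidesmosomal plectin gene, was at -0.43, the bullous pemphigoid antigen gene Dst at -0.45 in its brightest probe set and 0.05 and -0.82 in others above the floor, the actin and microtubule linker gene Macf1 at -0.51 and the epiplakin gene Eppk1 at -0.11. Of 5 armadillo relatives above the floor 0 were 2-fold apart on day 9, against the same 5.57% and 6.25%. On the spike-in scale 3 were lower, against 33.1% of all genes. Of these 3, Pkp4 was at -0.41 in 1 probe set and 0.63 in another on the deposited scale. The p120-catenin gene Ctnnd1 was at 0.28, Arvcf, a close relative of it, at -0.42, and the tumour suppressor gene Apc at -0.46.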
